A study of Mus musculus with 15 samples.

Results

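Cd36, Lrp1, Abca1, Plin2 and Lpcat3 handle lipid in macrophages, and each had at least 1 site bound by both RevErbalpha (gene Nr1d1) and RevErbbeta (gene Nr1d2). The 5 genes were chosen by name, but with earlier results of these data known. All sites that the authors' table assigned to them were taken, which gave 8 of 1544 common sites and 5 of 1220 gene IDs. Binding was measured by ChIP-seq in a mouse macrophage cell line, RAW, whose background is labelled C57Bl6. The cells expressed biotinylated RevErbalpha or RevErbbeta, which was captured on streptavidin beads, or were control RAW cells with BirA, a biotin ligase. Capped nascent RNA was measured by 5'GRO-seq in control RAW cells, labelled BTEV-Ctrl, and in RAW cells with tagged RevErbalpha, labelled BLRP-RevErba. Nascent RNA was measured by GRO-seq in bone marrow derived macrophages grown with M-CSF. Both genotypes carried floxed alleles of RevErbalpha and RevErbbeta on C57Bl6, and the library labelled DKO also carried Tie2-Cre, a transgene active in endothelial and blood cell lineages. How completely the alleles were deleted, the age of the mice and whether animals were pooled are not given in the sources used here.

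RevErbs are nuclear receptors of the circadian clock that recruit corepressors and lack the helix with which related receptors activate transcription. Enhancers, at which they bind, are themselves transcribed into short nascent RNA. Macrophages take up modified lipoprotein and debris, store the cholesterol and fatty acids in droplets, and export cholesterol to lipoprotein particles outside the cell. CD36 is a scavenger receptor for oxidised lipoprotein and long-chain fatty acids, and LRP1 is a large endocytic receptor for lipoprotein remnants and many other ligands. ABCA1 pumps cholesterol and phospholipid out to apolipoprotein A-I. PLIN2 coats lipid droplets, and LPCAT3 places polyunsaturated fatty acids into membrane phospholipids. Abca1 and Lpcat3 are known targets of the sterol receptors LXR, and Cd36 and Plin2 of the fatty acid receptors PPAR.

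Every group is a single sample, so the differences below have no check by replicates and carry no p-values. For each RevErb the table holds 3 runs of ChIP-seq, and for each genotype 2 runs of GRO-seq over genes, taken here as repeats of 1 sample. The header of the table also lists treated libraries, and the names of the columns do not say whether any run came from treated cells. The BirA values stand under a name that could also mean an input library. RevErb runs held between 598490 and 5276592 tags, the BirA library 10548880, and the 5'GRO-seq libraries 18708148 (control) and 7238710 (tagged RevErbalpha). Over the Nr1d1 gene, log2 GRO-seq signal was 7.91 and 7.48 in WT against 9.44 and 9.56 in the library labelled DKO. That value covers the whole gene and does not check the deletion. Of 10 macrophage markers, 3 had a value in the table (Csf1r, Cd14 and Fcgr1), with log2 differences between genotypes of -0.095 to 0.15. Of the markers of 6 other cell types, 1 had a value, the endothelial gene Vwf (9.54 and 9.70 in WT, 9.72 and 9.92 in DKO). The table covers only genes with a common site, so the other markers were not analysed here. In such bulk samples, fewer cells of a type and less RNA per cell cannot be told apart.

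Promoters are shown for Lpcat3 and Plin2, which had the sites nearest to a start, and for Cd36, the other gene whose promoter held the core element of nuclear receptors. All 5 genes had a promoter in the RefSeq table, which runs from 250 bases before the annotated start to 50 after it on build GRCm38.p6. The sites are on mm9, so the positions below cannot be set beside theirs, and the annotated start need not be the one the authors used. From the authors' starts, all 8 sites were 447 bp or more away. That element, AGGTCA, was searched on both strands and was found in the promoters of Plin2 and Cd36, where it stands in capitals as its reverse complement. The Lpcat3 promoter held none of the motifs searched.
Plin2 promoter, minus strand, chr4:86670010-86670309: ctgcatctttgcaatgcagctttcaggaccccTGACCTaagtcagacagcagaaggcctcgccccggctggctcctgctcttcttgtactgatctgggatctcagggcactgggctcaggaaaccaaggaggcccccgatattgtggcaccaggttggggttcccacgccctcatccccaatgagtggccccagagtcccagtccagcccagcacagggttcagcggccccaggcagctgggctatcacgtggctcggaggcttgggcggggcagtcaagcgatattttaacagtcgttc
Cd36 promoter, minus strand, chr5:17835847-17836146: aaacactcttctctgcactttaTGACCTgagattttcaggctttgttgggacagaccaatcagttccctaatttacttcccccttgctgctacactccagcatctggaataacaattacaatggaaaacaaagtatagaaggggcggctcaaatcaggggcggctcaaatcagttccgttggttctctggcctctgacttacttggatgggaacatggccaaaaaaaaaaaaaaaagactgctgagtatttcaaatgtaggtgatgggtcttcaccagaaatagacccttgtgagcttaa
Lpcat3 promoter, plus strand, chr6:124662854-124663153: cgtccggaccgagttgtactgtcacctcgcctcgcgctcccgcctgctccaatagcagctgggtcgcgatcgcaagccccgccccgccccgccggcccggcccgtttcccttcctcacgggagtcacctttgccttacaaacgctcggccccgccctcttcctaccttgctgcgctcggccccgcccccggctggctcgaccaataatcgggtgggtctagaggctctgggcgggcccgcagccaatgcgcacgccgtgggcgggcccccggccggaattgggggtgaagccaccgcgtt
The core element begins 218 bases before the start in Plin2 and 228 bases before it in Cd36. It occurs in 16.3% of the 32851 promoters of this length, so its presence in 2 of 5 is a description of these letters only. The longer RevErb element, which is the core with AANT before it, occurs in 0.219% of promoters and in none of the 5. Direct repeats of the core 1 base apart (0.0396% of promoters) or 4 bases apart (0.0152%), which also contain it, had no match in the 5. Nor did GAGGAAGT, a PU.1 motif (3.20%), or TGACTCA, an AP-1 motif (5.20%). Motifs were matched letter by letter, so an element with a changed base is missed. The lack of a match therefore does not show that these promoters lack such elements. The Lpcat3 window was the richest in G and C, at 71.0%, and that of Cd36 the poorest, at 43.0%, beside a median of 52.7% over all promoters.

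The sites lay at very different distances from the genes. Of the uptake receptors, Cd36 had 2 sites within the authors' genic class of enhancer-like sites (high H3K4me1, low H3K4me3). They were 8833 bp (chromosome 5, 17385866 to 17386022, build mm9 here and below) and 12154 bp (17382545 to 17382701) downstream of the start, and 3321 bp apart. Lrp1 had 1 genic enhancer-like site 24252 bp downstream of its start (chromosome 10, 127033874 to 127034030). Abca1 had 3 sites. Thus 2 of the 5 genes had 2 or more sites, as did 19.5% of the 1220 gene IDs, and 1 had 3 or more, as did 5.41%. Of the Abca1 sites, 1 lay 68007 bp upstream in the intergenic class (chromosome 4, 53240696 to 53240852), and 2 lay in the genic class, 4386 bp (53168303 to 53168459) and 39361 bp (53133328 to 53133484) downstream. Plin2 had 1 intergenic enhancer-like site 1959 bp upstream (chromosome 4, 86317844 to 86318000). The Lpcat3 site, 447 bp upstream (chromosome 6, 124612597 to 124612753), was the 1 site of the 8 in the class with H3K4me3 above H3K4me1, the marking of promoters. The nearest common site assigned to another gene was 40762 bp from the Plin2 site (Dennd4c) and 125722 bp or more from all the others.

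Both RevErbs bound all 8 sites above BirA, as sites of a common peak list must. The Plin2 site had the highest RevErbbeta mean of the 8, with all 3 runs and without any 1 of them. Values are log2 of tags within the site per 10000000 tags, with 1 taken to have been added. The mean over runs lay 3.61 to 6.11 above BirA for RevErbalpha and 4.11 to 7.43 above it for RevErbbeta. The low end of the first was an Abca1 site, the low end of the second a Cd36 site, and the high end of both was Plin2.

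Of the uptake receptors, Cd36 had 2 sites that were alike in RevErbbeta runs 1 and 2 and apart in run 3. The site at 8833 bp read 4.45, 6.97 and 7.10 for RevErbalpha in runs 1 to 3, 6.19, 6.45 and 5.87 for RevErbbeta and 1.05 for BirA, with equal means of 6.17 for both proteins. The site at 12154 bp read 4.81, 7.42 and 4.27 for RevErbalpha, 6.56, 6.62 and 1.03 for RevErbbeta and 0.63 for BirA. RevErbbeta run 3, a shallow run of 780281 tags, held no tag at the second site. A count of 0 in that run allows up to 3 tags, or a value of 5.30, which is still below the other 2 runs. The RevErbbeta mean at this site was 4.74 with run 3 and 6.59 without it, when the site at 8833 bp was at 6.32. The Lrp1 site read 5.50, 5.54 and 7.18 for RevErbalpha, 6.12, 7.55 and 7.25 for RevErbbeta and 1.90 for BirA. At Lrp1 the runs of both proteins overlapped.

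At Abca1, the exporter, no site reached the mean binding at Plin2, and the 3 sites were close to one another. The site 68007 bp upstream read 5.43, 5.74 and 5.86 for RevErbalpha and 5.58, 6.89 and 7.14 for RevErbbeta. The site at 4386 bp read 5.34, 5.50 and 4.67 for RevErbalpha and 5.56, 7.23 and 5.71 for RevErbbeta. The site at 39361 bp read 3.84, 6.56 and 5.81 for RevErbalpha and 5.59, 5.80 and 6.42 for RevErbbeta. The runs of these 3 sites overlapped for each protein, and BirA lay well below all of them, at 1.75, 1.56 and 1.08. Their means, in the same order, were 5.68, 5.17 and 5.40 for RevErbalpha and 6.54, 6.17 and 5.94 for RevErbbeta.

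The Plin2 site, at the gene for the droplet coat, read 3.87, 7.31 and 7.65 in the RevErbalpha runs, 7.82, 6.96 and 8.01 for RevErbbeta, and 0.17 for BirA, which is less than 1 tag. Its RevErbbeta mean of 7.60 ± 0.56 (SD of 3 runs) was exceeded at 85 of the 1544 sites, and its RevErbalpha mean of 6.28 ± 2.09 (SD of 3 runs) at 273. RevErbbeta was even between runs at Plin2, whereas RevErbalpha run 1 lay far below the other 2 runs. Its RevErbalpha mean was the highest of the 8 with all runs but not without run 2 (5.76, against 6.34 at Lrp1) or run 3 (5.59, against 6.12 at the Cd36 site at 12154 bp). In the deepest run alone its 3.87 was below every other site but the Abca1 site at 39361 bp (3.84), with Lrp1 at 5.50 and Lpcat3 at 4.75. The promoter-like site of Lpcat3, the phospholipid enzyme, had the second highest RevErbbeta mean (7.18) with all runs, and read 4.75, 6.94 and 6.92 for RevErbalpha, 6.92, 7.30 and 7.32 for RevErbbeta and 2.08 for BirA. That BirA value was exceeded at only 78 of the 1544 sites, so Lpcat3 stood on the highest background of the 8, although it was still about 3.41 tags.

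**Figure D1:**
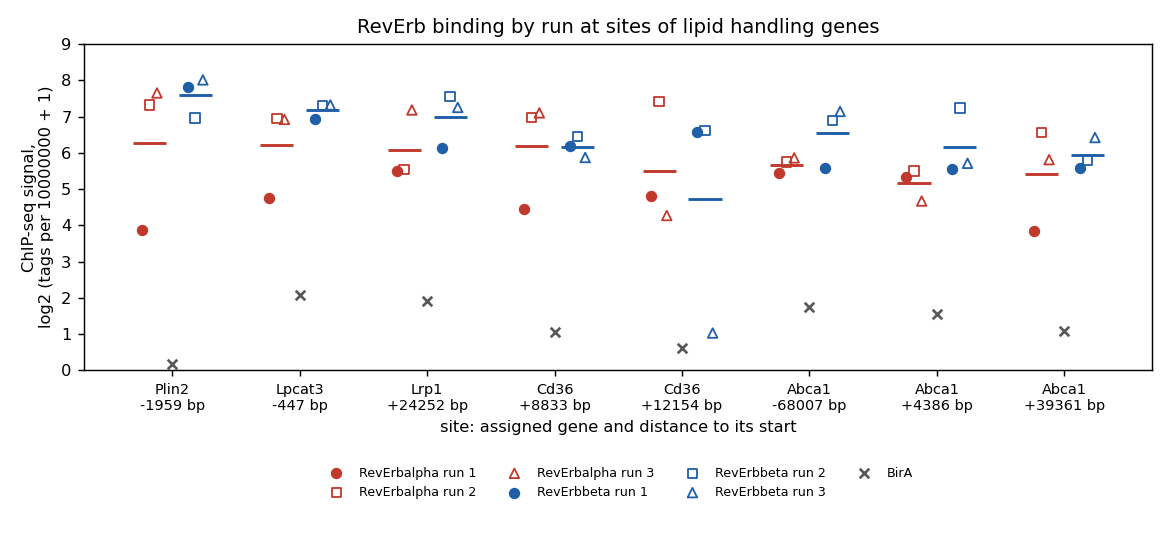
ChIP-seq signal (log2, vertical axis) at the 8 sites, 1 symbol per run, with horizontal bars for the mean of 3 runs of RevErbalpha (red) and RevErbbeta (blue) and crosses for BirA. Plin2 has the highest RevErbbeta mean (7.60, runs from 6.96 to 8.01), RevErbalpha run 1 is the lowest RevErbalpha run at 6 of 8 sites, and RevErbbeta run 3 is near BirA at the Cd36 site at 12154 bp.

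Across the 8 sites the median was 5.88 for RevErbalpha and 6.35 for RevErbbeta, beside 5.45 and 5.68 over all 1544 sites. RevErbalpha exceeded the median of all sites at 6 of the 8 and RevErbbeta at 7. RevErbbeta was higher than RevErbalpha at 6 of 8 sites, by a median of 0.88. Over all 1544 sites the median excess was 0.285, and 1026 sites exceeded the -0.0033 of the Cd36 site at 8833 bp. The size of the RevErbbeta excess at the 8 sites depended on RevErbalpha run 1. Without that run RevErbbeta was higher at 5 of 8, by a median of 0.18, and with only the runs above 2000000 tags, which are RevErbalpha run 1 and RevErbbeta runs 1 and 2, at 8 of 8 by 1.82. At Plin2 the excess of RevErbbeta was 1.32 with all runs, 0.12 without RevErbalpha run 1 and 3.52 with the deeper runs.

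RevErbalpha run 1 was compared with the other 2 runs at each site, in tags. At Plin2 it held about 7.19 tags against 22.7 in runs 2 and 3 together, although it was the deepest run, a log2 ratio of 3.70 after scaling (exact conditional 95% interval of counting error 2.20 to 5.22). The mean of runs 2 and 3 exceeded run 1 by 3.61 on the log2 scale at Plin2, and by more than that at only 10 of 1544 sites. The interval of this ratio also lay above 0 at Lpcat3 (0.99 to 3.59), at both Cd36 sites (1.28 to 3.98 and 0.49 to 3.22) and at the Abca1 site at 39361 bp (0.67 to 4.30). It included 0 at Lrp1 and at the other 2 Abca1 sites. At the Cd36 site at 12154 bp the pooled runs were far apart. Run 2 (7.42) lay above run 1 (4.81), but run 3 (4.27) lay below it, so the ratio there rests on run 2. Over all sites the median excess of runs 2 and 3 was 0.64. Depth differed between these runs (5276592 tags in run 1, 682651 and 598490 in the others), and its part in this gap was not tested.

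The next comparison asked whether 5' ends of nascent RNA at these sites differed when tagged RevErbalpha was expressed. Of the 8 sites, the Plin2 site was lower by 1 or more on the log2 scale, as 20.0% of all 1544 sites were, and the upstream Abca1 site was higher by 1 or more, as 4.92% were. The other 6 sites lay between -0.87 and 0.47. The Plin2 site read 6.17 in control cells, about 133 tags, and 3.90 with tagged RevErbalpha, about 10.1 tags. Its log2 difference of -2.27 had an exact conditional 95% interval of -3.46 to -1.33, which covers counting error only, and 78 of 1544 sites had a lower value. Among the 556 intergenic enhancer-like sites, 23 did.

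Sites of the uptake receptors had smaller differences, all below 0. The Lrp1 site read 7.26 and 6.52 (about 285 and 65.7 tags), a difference of -0.74 with an interval of -1.17 to -0.345. The Cd36 sites read 5.01 and 4.14 at 8833 bp, and 4.69 and 4.42 at 12154 bp. Their differences of -0.87 and -0.27 had intervals of -1.96 to 0.097 and -1.35 to 0.62, so neither was distinguishable from counting error at this depth.

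The Abca1 sites did not share a direction. The site 68007 bp upstream read 4.07 in control cells and 5.08 with tagged RevErbalpha (about 29.6 and 23.8 tags), a difference of 1.01 with an interval of 0.14 to 1.93. Its difference was 0.73 when 10 was the value added before the logarithm, under the size used for a call. The site at 4386 bp read 4.29 and 3.77, and the site at 39361 bp 6.40 and 6.65. These differences of -0.52 (interval -1.83 to 0.65) and 0.25 (interval -0.20 to 0.67) were within counting error.

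Lpcat3 had the most 5'GRO-seq signal of the 8 sites, with 8.19 in control cells and 8.66 with tagged RevErbalpha (about 544 and 292 tags). Its difference of 0.47 had an interval of 0.26 to 0.685. The Lpcat3 and Plin2 sites, with the 2 highest RevErbbeta means of the 8, had intervals on opposite sides of 0. The spread between separate cultures of 1 condition was not measured and is not in these intervals. The median difference of all 1544 sites was -0.23, and it was -0.395 for the 8. Relative to that median of all sites, Plin2 was at -2.04, Lrp1 at -0.51, the Cd36 sites at -0.64 and -0.04, the Abca1 sites at 1.24, -0.29 and 0.48 in the order above, and Lpcat3 at 0.70. Centring in this way left 1 of the 8 sites lower and 1 higher, and gave 254 lower and 127 higher over all sites in place of 309 and 76.

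**Figure D2:**
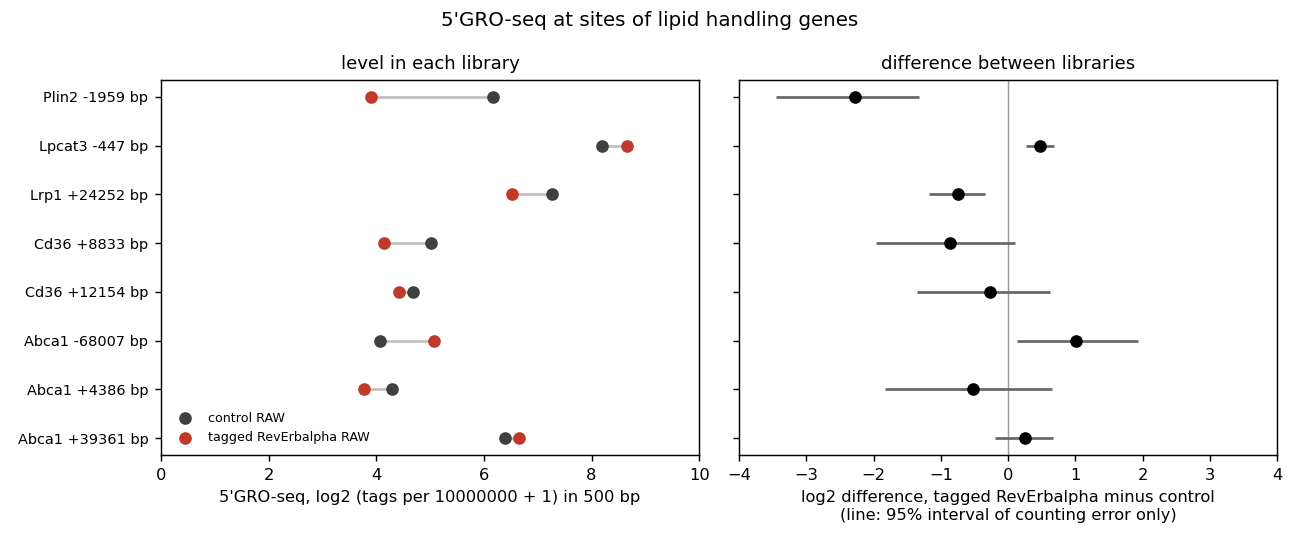
Left, 5'GRO-seq level (log2, horizontal axis) of each site in control RAW cells (dark) and RAW cells with tagged RevErbalpha (red), 1 library each. Right, the difference between the libraries with its 95% interval of counting error; Plin2 (-2.27) and Lrp1 (-0.74) lie below 0 with their intervals, and Lpcat3 (0.47) and the upstream Abca1 site (1.01) above 0.

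GRO-seq at the same sites was then compared between the genotypes of bone marrow derived macrophages. There both RevErb genes were targeted for loss, whereas the RAW cells gained tagged RevErbalpha alone. The manipulations and the cells both differ, so the comparisons are not mirror images. At 2 of the 8 sites, those of Plin2 and Lpcat3, signal was higher by 1 or more in the library labelled DKO, as at 3.37% of all sites, and none of the 8 was lower by 1 or more, as 2.20% were. The Plin2 site read 2.50 in WT and 3.685 in DKO, and its difference of 1.185 was exceeded at 22 of 1544 sites. The Lpcat3 site read 3.375 and 4.41, and its difference of 1.035 was exceeded at 41. In WT both sites lay below the median of all sites (3.68). In DKO the Lpcat3 site was above the median of all sites (3.765) and the Plin2 site below it. With 10 added before the logarithm the 2 differences were 0.58 and 0.64. Of all 1544 sites, 3 were then higher by 1 or more, in place of 52. The scaling of these values is not given, so how large an added 10 is on it is unknown.

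The other 6 sites differed by -0.625 to 0.26. The Cd36 site at 8833 bp read 2.545 and 1.92, the lowest difference of the 8 (-0.625), while the one at 12154 bp read 2.475 and 2.60 (0.125). The Lrp1 site, with the most GRO-seq signal of the 8, read 6.41 and 6.67 (0.26). The Abca1 sites read 2.305 and 2.335 upstream, 5.085 and 4.895 at 4386 bp, and 5.19 and 5.15 at 39361 bp, with differences of 0.03, -0.19 and -0.04. Sites within a transcribed gene also hold RNA of that gene, which these values do not separate from RNA begun at the site. The median difference was 0.08 for the 8 sites and 0.03 for all 1544, and no count of tags could be had from these columns, so their counting error is unknown.

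The Plin2 site was the 1 member that was lower by 1 or more with tagged RevErbalpha and higher by 1 or more in DKO. Of all 1544 sites, 18 (1.17%) had both. Among these were sites of Nr1d1, Cx3cr1 and Arntl, whose gene-level GRO-seq was higher in DKO by 1.805, 1.645 and 1.07. Also among them were sites of genes that were not higher, such as Dnttip2 (-0.10), Tgm2 (-0.17) and Ccnjl (-0.735). The comparisons share no library. Lpcat3, by contrast, read higher in both.

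**Figure D3:**
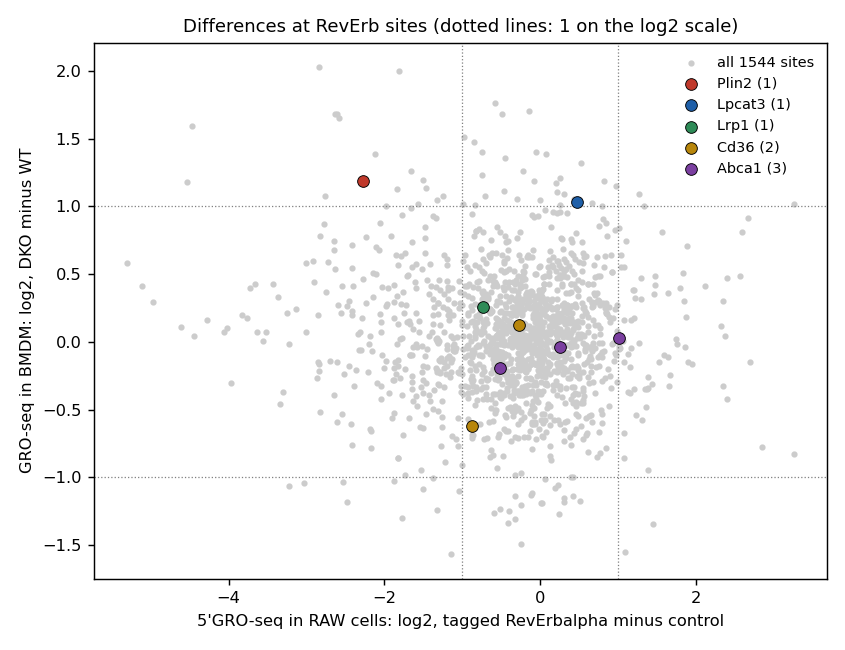
Each point is a site: the horizontal axis is the 5'GRO-seq difference in RAW cells (log2, tagged RevErbalpha minus control) and the vertical axis the GRO-seq difference in bone marrow derived macrophages (log2, DKO minus WT); grey points are all 1544 sites. Plin2 (-2.27 and 1.185) lies in the upper left, Lpcat3 (0.47 and 1.035) at the upper edge, and the Lrp1, Cd36 and Abca1 sites in the main cloud or, for the upstream Abca1 site (1.01 and 0.03), at its right.

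At the level of whole genes, none of the 5 passed the rule for a change between genotypes, which was a difference of at least 0.5 with no overlap of the runs; 1.97% of the 1220 gene IDs passed it as higher in DKO and 0.738% as lower. Plin2 came nearest. It read 11.46 and 11.06 in WT against 11.58 and 11.81 in DKO, so that both DKO runs were above both WT runs, as for 18.4% of gene IDs. Its difference of 0.435 was exceeded by 42 of 1220, and it varied from 0.235 without WT run 2 to 0.635 without WT run 1. It was 0.55 without DKO run 1, so that leaving out either WT run 1 or DKO run 1 took it past 0.5. The gap between its WT runs (0.40) was almost as large as the difference itself.

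Lrp1 read 13.63 and 13.66 in WT and 13.68 and 13.86 in DKO, again without overlap, with a difference of 0.125. Lpcat3 read 9.89 and 10.19 against 9.99 and 9.93, with overlapping runs and a difference of -0.08 (0.07 without WT run 2), although signal at its upstream site was higher in DKO. The window of the site values is not given, so how much RNA of the gene they hold is unknown. Cd36 read 13.07 and 12.74 against 12.76 and 12.81, a difference of -0.12 with overlapping runs (0.045 without WT run 1).

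Abca1 read 13.63 and 12.89 in WT, the widest gap between WT runs of the 5 genes (0.74), and 13.32 and 13.29 in DKO. Its difference was 0.045 with all runs, 0.415 without WT run 1 and -0.325 without WT run 2, so the WT runs alone set its sign. The median gap between WT runs was 0.17 over all genes. The median difference was 0.045 for the 5 genes and 0.035 for all 1220. The values are not given as per length, so no order of levels between genes was drawn.

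**Figure D4:**
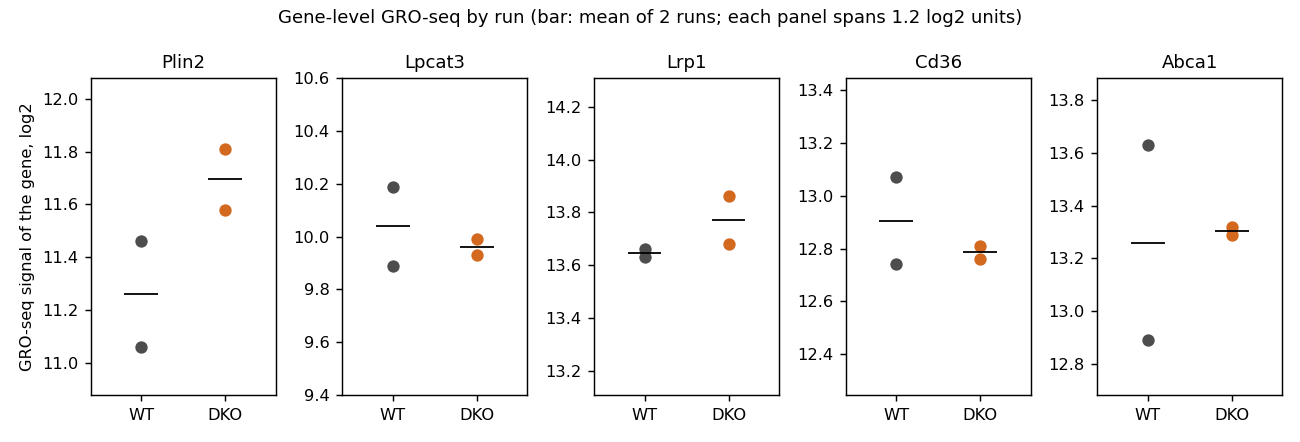
Gene-level GRO-seq signal (log2, vertical axis, 1 panel per gene, all panels spanning the same range) in the WT and DKO runs, with bars for the mean of 2 runs. Both DKO runs lie above both WT runs for Plin2 and Lrp1, and the WT runs of Abca1 (13.63 and 12.89) lie on both sides of its DKO runs.

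Of 96 listed genes of lipid uptake, export, storage, remodelling, oxidation, synthesis and sensing, 21 had a common site, with 28 sites in all. None of the 21 passed the gene rule in either direction. Both DKO runs were above both WT runs for 4 of them and below for 1 (18.4% and 10.0% over all gene IDs), and the median difference was 0.065, beside 0.035 for all genes. In 5'GRO-seq, 6 of the 28 sites were lower by 1 or more with tagged RevErbalpha, a share near the 20.0% of all sites, 2 were higher (4.92% over all sites), and the median was -0.495, beside -0.23 for all sites. The median was -0.49 without the site of Lpin2, which held fewer than 3 tags in both libraries. In GRO-seq at sites, 3 were higher by 1 or more in DKO (3.37% over all sites), none was lower (2.20%), and the median was 0.06, beside 0.03. These 3 include the Plin2 and Lpcat3 sites given above, and without the 5 genes 1 of 20 sites was higher.

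The group listed as phospholipid remodelling and release also took in Lpin1 and Lpin2, so it is wider than remodelling enzymes. Of its 5 sites, 3 were lower, against 20.0% of all sites, and 2 of these 3 belong to the same gene. Lpin1, a phosphatidate phosphatase, had 2 sites in the intergenic class, which read 7.16 and 4.60 (difference -2.56) and 3.65 and 0.89 (-2.76). The second held under 1 tag with tagged RevErbalpha, so its difference is a bound, at least 1.29 lower when taken against 3 tags. Its GRO-seq value was higher by 1.08 in DKO, from a level of 0.745. Pla2g4a, which releases arachidonic acid from phospholipids, read 5.65 and 3.22 (-2.43) at a genic site. Lpcat3, in the same group, did not share this direction.

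Of the other groups, Slc27a1, a fatty acid transport protein, read 9.21 and 7.97 (-1.24). Abhd5, the coactivator of droplet lipolysis, read 4.97 and 7.29 at its upstream site, the highest difference among the 28 (2.32). Plin2 and Abhd5, both of the droplet group, therefore had the lowest and the highest difference of that group. The uptake group had no called site among 6, and all 6 were below 0, as were 966 of all 1544 sites. In the export group, 3 of 6 sites were below 0, and the 3 of Abca1 stood beside those of Abcg1 (0.42 and -0.06), the partner exporter, and Pltp (-0.20), the phospholipid transfer protein.

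**Figure D5:**
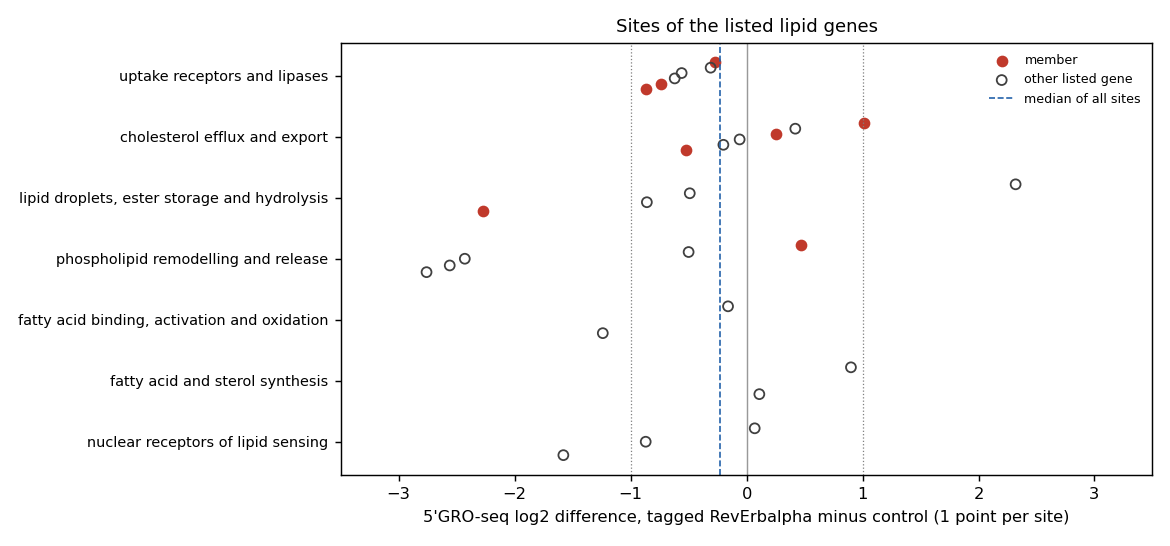
The 5'GRO-seq difference (log2, tagged RevErbalpha minus control, horizontal axis) at each site of the listed lipid genes, by group; filled points are sites of the 5 genes and open points those of other listed genes, with dotted lines at 1 and -1 and a dashed line at the median of all sites (-0.23). The lowest points are Lpin1 (-2.76, from under 1 tag in the tagged library, and -2.56), Pla2g4a (-2.43) and Plin2 (-2.27), and the highest is Abhd5 (2.32).

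The sites most like the strongest site of each gene were sought by the root mean square distance over 11 columns (6 RevErb runs, BirA, 2 5'GRO-seq and 2 GRO-seq values, log2). The Plin2 site was nearest to sites of Prex1 (0.79) and Plekhm3 (0.85), against a median distance of 2.11 to all sites of other genes. These had 5'GRO-seq differences of -3.14 and -1.84 but GRO-seq differences of 0.24 and -0.015. The Lpcat3 site was nearest to genic sites of Grk5 (0.61) and Ankrd33b (0.69), and the Lrp1 site to sites of Slc17a5 (0.58) and Gm7367 (0.65). For Cd36 the nearest were sites of Cited2 (0.55) and Dcstamp (0.56), and for Abca1 those of Rps23 (0.60) and Map4k3 (0.61). Over the 4 gene-level runs, Plin2 was nearest to Pltp (0.08) and Plxna1 (0.13), whose genotype differences were 0.295 and 0.355. Lpcat3 was nearest to Uspl1 (0.04) and Fads1 (0.08), Lrp1 to Lcp1 (0.08) and Lpp (0.11), Cd36 to Ehd4 (0.04) and Myof (0.08), and Abca1 to Stab1 (0.17) and Tbxas1 (0.18). These distances weigh level as well as change, and the 4 runs are shared by all genes.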

How the data were processed

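The submitters' processing notes name the build mm9, Bowtie 0.12.7 and HOMER. Peak calling settings are not given in the sources used here. Per the file headers, the deposited values are log2 values: ChIP-seq and 5'GRO-seq tags per 10000000 in a window at each site, and GRO-seq signal. The scaling of the GRO-seq signal at sites was not given. For GRO-seq over genes the headers gave totals of 38013896 and 43562502 (WT) and 46649008 and 34852907 (DKO), each with a factor of 1.0. A pseudocount of 1 was assumed, since the lowest values are near 0. Approximate tags were computed from the header totals. They did not fall on whole numbers and may be off by about 1. Intervals are exact conditional (Clopper-Pearson) 95% intervals, the widest over tags rounded down or up. They cover counting error only. Means of runs and differences were recomputed and lay within 0.01 of the authors' columns, and distances, classes and assigned genes are the authors'. BirA values come from a column headed BirA-input, which could be an input library. A site was called at a log2 difference of 1, a gene at 0.5 with runs that did not overlap, a rule tested on simulated data. The simulation gave all genes the same spread between runs within a genotype, so it does not show how the rule performs between separate samples. The 5 genes, 7 lipid lists, 7 marker lists and motifs were chosen with earlier results of these data known. Named were the 5 genes, listed genes with a call (1 is not reported here), and the 2 nearest sites and genes of each of the 5; others named were chosen after their values were seen. All 5 gene IDs matched in RefSeq (GRCm38.p6). H3K9ac, H3K4me1 and PU.1 libraries were not analysed here. Python 3.11.15, pandas 2.3.3 and SciPy 1.17.1 were used.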

Additional observations from a re-analysis of the deposited data

How the results depend on the processing

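Median binding over the 8 sites ranged from 5.59 to 6.27 (RevErbalpha) and from 6.20 to 6.74 (RevErbbeta) when 1 run was left out, and was 4.78 with only the deepest RevErbalpha run. With 10 added before the logarithm, the numbers of sites higher by 1 or more fell to 0 of 8 and 1 of 28 lipid sites in 5'GRO-seq, and to 0 of 8 and 0 of 28 in GRO-seq. Over all 1544 sites they also fell, from 76 to 34 in 5'GRO-seq and from 52 to 3 in GRO-seq. At a size of 0.5, 4 of 8 and 14 of 28 sites were lower in 5'GRO-seq (36.3% of all sites), 1 and 2 were lower in GRO-seq (10.7%), and 5 of 28 were higher in GRO-seq (13.5%). At a size of 0.25, 1 of the 5 genes (Plin2) and 2 of the 21 lipid genes were called higher (8.52% of all genes). With 1 run left out, 0 to 1 of the 5 genes and 0 to 2 of the 21 were called higher, and 0 to 1 of the 21 lower. Runs overlap less easily when 1 is left out, and the share of all genes called was not computed for these settings. These counts therefore cannot be set against a background. Centring on the median of all sites or genes moved none of the members' calls. For all sites it raised the number higher by 1 or more in 5'GRO-seq from 76 to 127, and adding 10 lowered the number lower from 309 to 181. No paired analysis was possible because each group has 1 sample.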

Other observations

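Of the listed lipid genes, Lpin2, a phosphatidate phosphatase like Lpin1, had the most strongly bound site, and it was chosen here after its values were seen. This genic enhancer-like site, 75755 bp upstream of the assigned start, read 7.44 for RevErbalpha and 7.74 for RevErbbeta (means of 3 runs), against 0.36 for BirA. It held fewer than 3 tags in both 5'GRO-seq libraries, with 0.83 in control cells and 0.33 with tagged RevErbalpha, and GRO-seq values of 1.70 in WT and 2.23 in DKO. The Lpin1 sites were bound less, at 4.09 and 5.15 for RevErbalpha and 4.97 and 6.07 for RevErbbeta.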
